A study of Mus musculus with 42 samples.

Results

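Microglia of the hippocampus of 5xFAD mice were compared with microglia of wild-type mice, all housed under specific-pathogen-free (SPF) conditions. The 8 libraries were taken by their labels from the 42 samples of the series: wild-type SPF1, SPF2, SPF3 and SPF4, and the 5xFAD libraries FAD_2140, FAD_2142, FAD_2152 and FAD_2153. The mice were 16 weeks old and on a C57BL/6 background, and microglia were isolated over a density gradient and sorted as CD11b+CD45lo cells before total RNA was sequenced. 5xFAD mice carry mutant human transgenes, APP among them, driven by the Thy1 promoter, which is active in neurons, and they deposit amyloid in the brain early in adult life. The transgenes therefore model amyloid formed outside the microglia, and a sorted microglial library does not test for their presence. The labels name each library by an animal or replicate number and do not say whether animals were pooled. The same fit held 3 wild-type and 3 5xFAD libraries from germ-free mice and 4 of each genotype from germ-free mice given acetate, which shared one estimate of spread with the SPF libraries and are used below only for comparison.

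Microglia are the resident macrophages of the brain. In the healthy brain they express a homeostatic programme of surface receptors, and around amyloid plaques they are known to lower that programme and to raise genes for lipid transport, lysosomal digestion, phagocytic receptors and secreted factors. This plaque response depends on the lipid receptor TREM2 and its adaptor TYROBP, and it often includes a set of type I interferon response genes.

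The libraries held between 5743891 and 21150484 gene counts, and 17241 to 19792 genes had a count. Wild-type SPF4 (5862938 counts) and FAD_2142 (5743891 counts) were shallow, so a floor of 3 counts corresponded to 0.512 and 0.522 CPM (counts-per-million units) there and to at most 0.169 CPM in the other 6. Levels below are CPM after TMM scaling of the library sizes, in the order SPF1, SPF2, SPF3, SPF4 and FAD_2140, FAD_2142, FAD_2152, FAD_2153, and they compare libraries for a gene, not genes with each other. The microglia markers P2ry12, Tmem119, Siglech, Sall1, Fcrls, Cx3cr1 and Olfml3 were detected in each library, with 4498 to 7530 CPM for P2ry12 and 402 to 873 CPM for Sall1. Library FAD_2153 held 280.6 CPM of neutrophil markers against at most 0.22 CPM in the other 7, and wild-type SPF3 held 73.5 CPM of erythroid markers against at most 4.81 CPM. Border macrophage markers summed to 695 to 1032 CPM in wild type and 606 to 883 CPM in 5xFAD, monocyte markers to 5.45 to 13.5 CPM and 9.97 to 36.04 CPM. The 36.04 CPM was that of FAD_2153, where Chil3 made up 21.9 CPM, a gene without a count in the other 7. The border macrophage sum was mostly Stab1 (656 to 977 CPM in wild type and 546 to 852 CPM in 5xFAD). The median log2 difference of the 7 tested border macrophage markers was 0.92, with none passing. The markers did not all go in the same direction. Cd163, a marker at low level, had 0, 0, 0.055 and 0 CPM in wild type and 0.681, 2.84, 0.227 and 2.30 CPM in 5xFAD. It rested on at most 1 count per wild-type library and on 4 to 48 counts per 5xFAD library. Mrc1, at a higher level, had 26.4, 15.5, 16.2 and 11.4 CPM in wild type and 11.7, 18.975, 9.52 and 10.2 CPM in 5xFAD. Its ranges overlapped, with the highest value in wild type and the lowest in 5xFAD. The part of these other transcripts in the results below was not tested. Library FAD_2152 stood apart from the other 5xFAD libraries on most genes that were higher in 5xFAD, so results are given with and without it. Its genotype is taken from its label and was not checked in another way, and every value with all 4 5xFAD libraries rests on that label. Because FAD_2152 was singled out by its levels of such genes, the counts and p-values without it describe 3 of the 4 libraries and are not independent evidence for the comparison of genotypes.

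Across 17063 tested genes, 62 were higher in 5xFAD (0.363%) and 35 were lower (0.205%) at an edgeR adjusted p under 0.05, 97 in all (0.568%). The higher genes included the plaque-response genes Cst7, Apoe, Axl, Igf1 and Ank, and the lower genes included the immediate-early genes Fosb, Fos, Dusp1 and Junb and Fcrls, a microglial Fc receptor-like protein. Without FAD_2152, 200 genes were higher (1.18%) and 127 lower (0.747%) of 16993 tested, 327 in all (1.92%). These held 61 of the 62 higher genes, 30.5% of the larger set, and all 35 lower genes, 27.6% of it. The median log2 difference over all tested genes was 0.01 with all 4 libraries and -0.001 without FAD_2152. With 0.568% or 1.92% of genes called, a gene list of the sizes given below can hold no call without standing out from other genes.

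**Figure D1:**
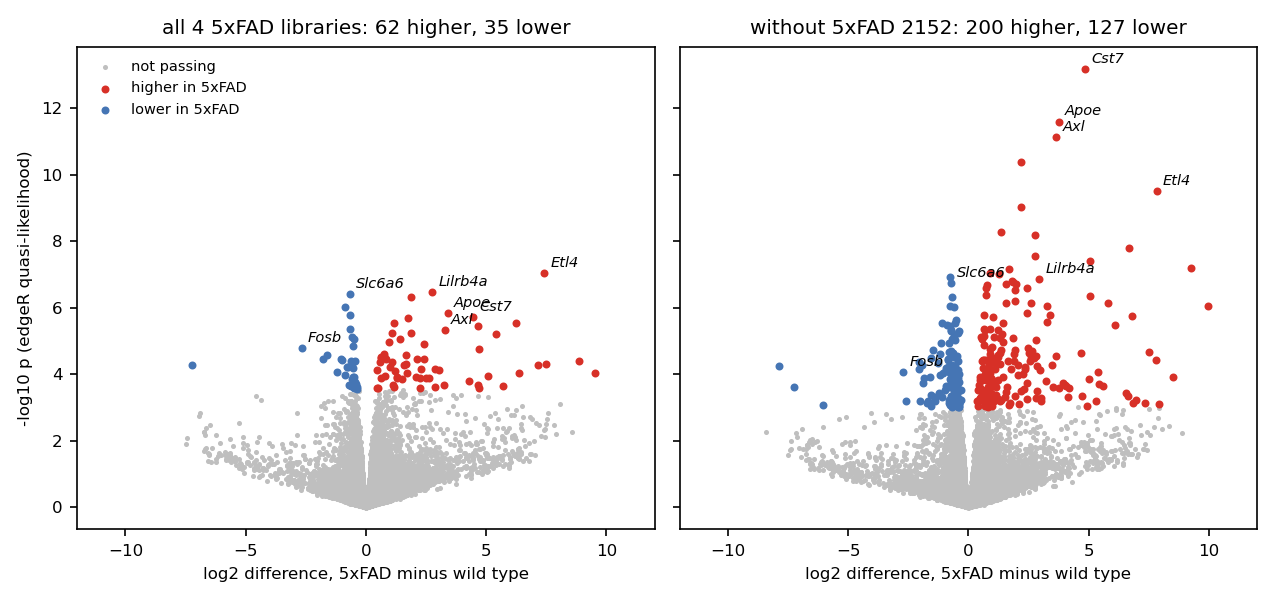
Log2 difference between SPF 5xFAD and SPF wild-type hippocampal microglia (x axis) against -log10 of the edgeR p-value (y axis) for each tested gene, with all 4 5xFAD libraries (left) and without FAD_2152 (right). Red and blue points passed an adjusted p under 0.05 as higher or lower in 5xFAD. Without FAD_2152 the higher genes went from 62 to 200 and the lower genes from 35 to 127, with Cst7, Apoe and Axl at the top.

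The number of calls rested on single libraries on both sides of the comparison. Leaving out SPF1, SPF2, SPF3 or SPF4 gave 40, 19, 19 or 39 higher and 26, 10, 7 or 19 lower genes. Leaving out FAD_2140, FAD_2142 or FAD_2153 gave 24, 18 or 29 higher and 10, 11 or 15 lower genes. 14 of the 62 higher genes were called in each of these 8 fits (Ank, Apoe, Axl, Baiap2l2, Cst7, Etl4, Gvin-ps7, Igf1, Kcnma1, Lilrb4a, Lyz2, Phf11b, Rftn1 and Wfdc17), as were 6 of the 35 lower genes (Dusp6, Hpgd, Marcks, Rhob, Slc6a6 and Zfp467). A fit on the 8 SPF libraries alone called 6 higher and 4 lower genes, and one on the 7 without FAD_2152 called 180 and 81. All 4 values of one genotype lay outside the range of the other for 874 of all tested genes (5.12%), for 35 of the 62 higher genes (56.5%) and for 32 of the 35 lower genes (91.4%).

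The mouse gene App, which corresponds to a transgene, was measured first. It had levels of 140, 154, 138 and 160 CPM in wild type and 199, 218, 191 and 219 CPM in 5xFAD, so that each 5xFAD library, FAD_2152 included, lay above the wild-type range. The log2 difference was 0.48 (SE 0.11, edgeR adjusted p = 0.0471). This call was lost in 7 of the 8 fits that left out a library, where the adjusted p reached 0.157, and kept without FAD_2152 (log2 0.52, adjusted p = 0.0218). App did not pass in germ-free mice (log2 0.31, adjusted p = 0.374) or under acetate (log2 0.22, adjusted p = 0.39). Thy1 was below the count filter. How reads of a human transgene would be assigned to a mouse gene is not given in the sources used here.

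Secreted plaque-response factors formed the gene list with the most calls. Of its 26 genes, 8 were higher in 5xFAD (Cst7, Dkk2, Apoe, Lpl, Igf1, Ccl6, Ank and Mamdc2) and none lower, with a median log2 difference of 1.82 against 0.01 over all tested genes. Without FAD_2152, 17 of 26 were higher, with a median of 2.11. In bulk RNA of this kind, more responding cells and more RNA per cell cannot be told apart.

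Cst7 encodes cystatin F, an inhibitor of lysosomal cysteine proteases. Its levels were 10.1, 19.4, 11.8 and 22.7 CPM in wild type and 376, 512, 13.3 and 468 CPM in 5xFAD. Libraries FAD_2140, FAD_2142 and FAD_2153 were far above wild type, and FAD_2152 lay within the wild-type range. The log2 difference was 4.45 (SE 0.66, edgeR adjusted p = 0.00376) with all 4 libraries and 4.86 (SE 0.29, adjusted p = 1.12e-09) without FAD_2152.

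Apoe encodes the lipid carrier apolipoprotein E, whose human gene is the main common genetic risk factor for late-onset Alzheimer disease. Its levels were 361, 241, 347 and 398 CPM in wild type and 4221, 6304, 441 and 3170 CPM in 5xFAD. All 4 5xFAD libraries lay above the wild-type range, FAD_2152 by a small margin. The log2 difference was 3.39 (SE 0.50, edgeR adjusted p = 0.00376), and it was 3.76 (SE 0.27, adjusted p = 2.17e-08) without FAD_2152.

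Igf1 encodes insulin-like growth factor 1. It had 2.62, 1.71, 0.605 and 0 CPM in wild type and 36.7, 51.6, 3.96 and 53.0 CPM in 5xFAD, with FAD_2152 closest to wild type but above its range (log2 4.67, SE 0.76, edgeR adjusted p = 0.00515; log2 5.04, SE 0.61 without FAD_2152). Ank, a membrane protein that controls pyrophosphate outside cells, was tight in wild type at 46.9, 48.6, 50.5 and 49.2 CPM and rose to 172, 206, 63.3 and 283 CPM (log2 1.89, SE 0.27, edgeR adjusted p = 0.00197; log2 2.18, SE 0.18 without FAD_2152). All 4 5xFAD libraries were above wild type for Igf1 and for Ank. Mamdc2, which encodes a proteoglycan, had no count in any wild-type library and 5.39, 8.51, 0 and 7.28 CPM in 5xFAD. Against a floor of 3 counts per library its mean was at least 21.7-fold higher, and at least 28.9-fold higher without FAD_2152. The Mamdc2 call was lost when any library but FAD_2152 was left out, with an adjusted p of up to 0.0996.

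Lpl, the lipase that releases fatty acids from lipoproteins, had 58.8, 40.0, 28.6 and 34.9 CPM in wild type and 255, 418, 36.1 and 493 CPM in 5xFAD. Its call (log2 2.88, SE 0.64, edgeR adjusted p = 0.0461) held in 1 of the 8 fits that left out a library, the fit without FAD_2152 (log2 3.25, adjusted p = 0.00105), and its adjusted p reached 0.151 in the others. The chemokine Ccl6 had 187, 181, 201 and 212 CPM in wild type and 376, 559, 183 and 546 CPM in 5xFAD (log2 1.09, SE 0.22, adjusted p = 0.0175; log2 1.34, SE 0.15 without FAD_2152). The Ccl6 call was lost without SPF1, SPF2, SPF3, FAD_2142 or FAD_2153, with an adjusted p of up to 0.0928. In both genes FAD_2152 lay within the wild-type range and the other 5xFAD libraries lay well above it. Spp1, which encodes osteopontin, and Csf1, the ligand of the receptor that microglia need to survive, passed without FAD_2152 (log2 3.77 and 2.05, adjusted p = 0.0202 and 0.0119) and not with it (adjusted p = 0.109 and 0.107).

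**Figure D2:**
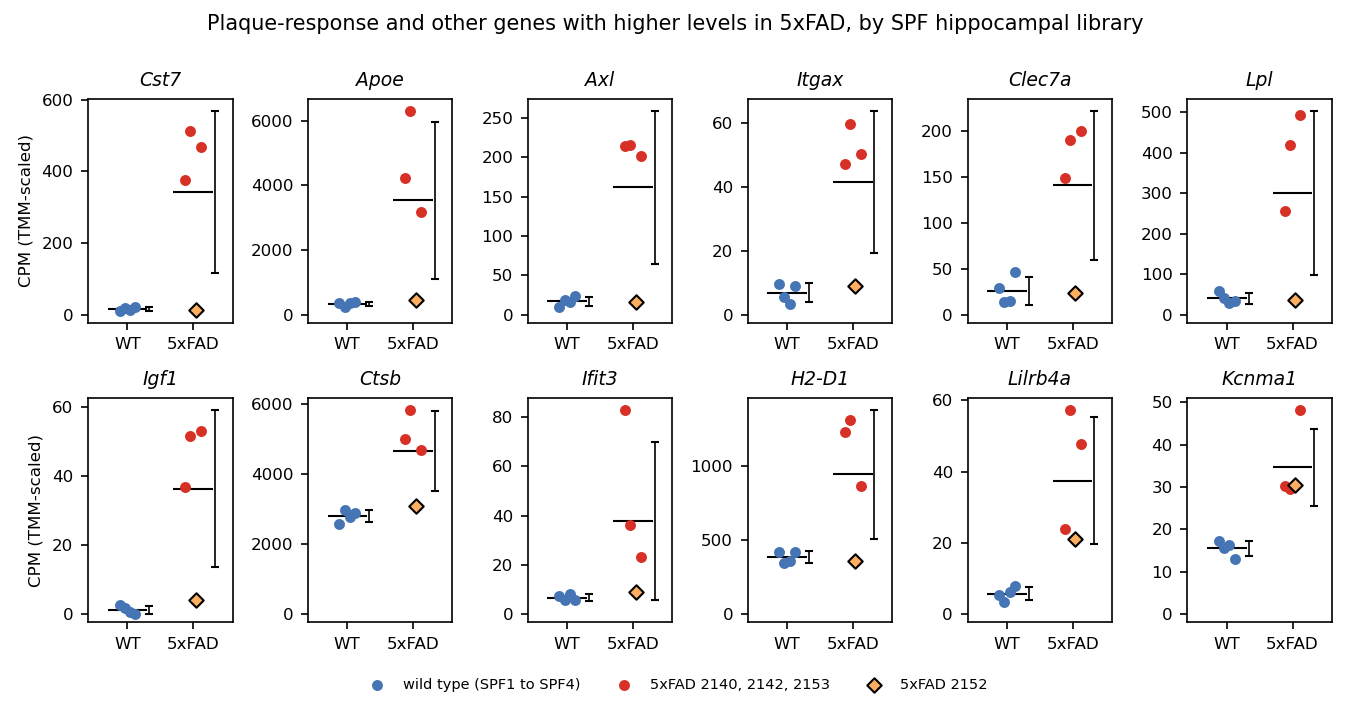
CPM of 12 genes (y axis, linear scale, one scale per gene) in each SPF hippocampal library, wild type in blue, FAD_2140, FAD_2142 and FAD_2153 in red and FAD_2152 as an orange diamond. Horizontal lines are group means and bars their SD (n = 4). For Cst7, Axl, Lpl, Clec7a, Itgax and H2-D1 the diamond sits at or within the wild-type range, whereas for Lilrb4a and Kcnma1 it sits above it.

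Among 25 surface receptors of the plaque response, 2 were higher in 5xFAD (Axl and Lilrb4a), none was lower, and the median log2 difference was 0.79. Axl, a receptor tyrosine kinase that helps to take up dying cells, had 10.2, 18.4, 15.5 and 24.02 CPM in wild type and 215, 215, 16.6 and 201 CPM in 5xFAD. It was high in 3 libraries and at the wild-type level in FAD_2152 (log2 3.28, SE 0.52, edgeR adjusted p = 0.00573; log2 3.66, SE 0.28, adjusted p = 4.17e-08 without FAD_2152). Lilrb4a, an inhibitory immune receptor, behaved differently, with 5.30, 3.33, 6.26 and 7.84 CPM in wild type and 23.8, 57.3, 21.01 and 47.9 CPM in 5xFAD. All 4 5xFAD libraries were above all wild-type libraries, and FAD_2152 was close to FAD_2140 (log2 2.75, SE 0.39, adjusted p = 0.00197; log2 2.95, SE 0.39 without FAD_2152). Lilrb4a has a near-identical neighbour, so reads of both could be split between them.

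Without FAD_2152 the surface receptors Pdcd1, Clec7a, Tyrobp, Itgax, Cd63 and Cd83 also rose, giving 8 higher of 25, and Cd33, a sialic acid-binding receptor, fell. Clec7a, the beta-glucan receptor dectin-1, had 29.2, 14.2, 14.6 and 46.3 CPM in wild type and 149, 191, 24.1 and 200 CPM in 5xFAD (log2 2.47, SE 0.76, edgeR adjusted p = 0.181; log2 2.83, adjusted p = 0.0322 without FAD_2152). Itgax, the integrin CD11c, had 9.50, 5.47, 3.35 and 9.03 CPM in wild type and 47.1, 59.6, 9.12 and 50.2 CPM in 5xFAD (adjusted p = 0.0753 with FAD_2152 and 0.00897 without). Both genes were at the wild-type level in FAD_2152. Trem2, the lipid-sensing receptor, had a log2 difference of 0.16 (SE 0.11, adjusted p = 0.7) with FAD_2152 and 0.25 (SE 0.11, adjusted p = 0.325) without. Its adaptor Tyrobp passed without FAD_2152 (log2 0.89, adjusted p = 0.00586) and not with it (log2 0.71, adjusted p = 0.117). Of 12 genes of TREM2 signalling none passed with all 4 libraries, and Tyrobp was the 1 that passed without FAD_2152.

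Genes of lipid handling rose in 3 of 24 tested (Apoe, Lpl and Ch25h, the enzyme that makes 25-hydroxycholesterol). Without FAD_2152, 9 rose and Abcg1, a sterol exporter, fell. The 9 included Plin2, which coats lipid droplets (35.9, 36.4, 44.2 and 37.5 CPM in wild type; 80.6, 79.1, 40.3 and 55.9 CPM in 5xFAD), and Npc2, which carries cholesterol out of lysosomes (log2 0.58, SE 0.10, edgeR adjusted p = 0.00225). None of 18 tested genes of sterol synthesis passed with or without FAD_2152, with medians of 0.10 and 0.12.

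Of 34 tested cathepsin and lysosome genes, 4 rose by about the same size: Ctsb, Ctsd, Hexa and Gusb. The protease Ctsb had 2569, 2964, 2762 and 2886 CPM in wild type and 5011, 5827, 3094 and 4699 CPM in 5xFAD (log2 0.74, SE 0.14, edgeR adjusted p = 0.0163; log2 0.89, SE 0.11 without FAD_2152). The protease Ctsd had 9509, 9399.7, 9367 and 9602 CPM in wild type and 15254, 17960, 10330 and 13934 CPM in 5xFAD (log2 0.60, SE 0.12, adjusted p = 0.0175; log2 0.73, SE 0.10 without FAD_2152). Wild-type libraries were close together for both, and FAD_2152 lay just above them. Hexa and Gusb, a hexosaminidase subunit and a glucuronidase, had log2 differences of 0.62 and 0.51 (SE 0.12 each, adjusted p = 0.0167 and 0.0471). These calls held in 5, 4, 4 and 1 of the 8 fits that left out a library for Ctsb, Ctsd, Hexa and Gusb, with an adjusted p of up to 0.183. Ctsb was lost without SPF3, FAD_2140 or FAD_2142, Ctsd and Hexa also without SPF2, and Gusb without any library but FAD_2152. The list's median was 0.11, and without FAD_2152 it was 0.17, with 7 higher and 1 lower: Lgmn, which encodes the protease legumain, fell by 0.38 on the log2 scale (SE 0.06, adjusted p = 0.00149). None of the 4 MITF and TFE transcription factors, known regulators of lysosomal genes, passed.

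Type I interferon response genes had a median log2 difference of 2.01 over 27 genes, of which 3 rose with all 4 libraries (Oasl2, Ifi27l2a and Ifit3) and none fell. Without FAD_2152, 16 of 27 rose, with a median of 2.34. Ifit3, which binds viral RNA together with its relatives, had 7.40, 5.62, 8.19 and 5.62 CPM in wild type and 82.8, 36.0, 8.78 and 23.2 CPM in 5xFAD (log2 2.48, SE 0.54, edgeR adjusted p = 0.0305; log2 2.81, SE 0.49 without FAD_2152). Oasl2, of the oligoadenylate synthetase family, had 9.39, 2.14, 2.64 and 6.64 CPM in wild type and 84.1, 34.8, 5.78 and 42.8 CPM in 5xFAD (log2 3.04, SE 0.63, adjusted p = 0.0228; log2 3.41, SE 0.53 without FAD_2152). Library FAD_2140 was the highest for both, and FAD_2152 was within or next to the wild-type range. Ifit3 kept its call without FAD_2152 or FAD_2153 and Oasl2 without SPF1 or FAD_2152, and both lost it without any other library, with an adjusted p of up to 0.19 for Ifit3 and 0.116 for Oasl2. Isg15, a ubiquitin-like protein, had 4.67, 2.05, 4.07 and 2.21 CPM in wild type and 27.2, 12.4, 4.59 and 7.66 CPM in 5xFAD, and passed without FAD_2152 (log2 2.26, adjusted p = 0.0107).

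The promoters of Ifit3 and Isg15 are shown because the interferon-stimulated response element, the site bound by the factors that interferon activates, can be read in them. The Oasl2 window held no match. The windows run from 250 bases before to 50 after each gene's start, are taken from RefSeq on GRCm38.p6 and read 5′ to 3′ on the gene's strand. Capitals mark the element, searched as GAAA, any 2 bases and GAAA on both strands, so that it also appears as its reverse complement. Ifit3 (chr19:34583279-34583578, plus strand) holds it at bases -156 and -122 from the start. Isg15 (chr4:156200769-156201068, minus strand) holds 3 overlapping copies that begin at -78, -72 and -66.
Ifit3: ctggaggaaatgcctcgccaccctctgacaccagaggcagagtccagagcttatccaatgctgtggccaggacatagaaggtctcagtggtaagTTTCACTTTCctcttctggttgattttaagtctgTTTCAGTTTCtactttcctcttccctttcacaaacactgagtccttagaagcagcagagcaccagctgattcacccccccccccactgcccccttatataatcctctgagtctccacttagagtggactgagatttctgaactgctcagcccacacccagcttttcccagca
Isg15: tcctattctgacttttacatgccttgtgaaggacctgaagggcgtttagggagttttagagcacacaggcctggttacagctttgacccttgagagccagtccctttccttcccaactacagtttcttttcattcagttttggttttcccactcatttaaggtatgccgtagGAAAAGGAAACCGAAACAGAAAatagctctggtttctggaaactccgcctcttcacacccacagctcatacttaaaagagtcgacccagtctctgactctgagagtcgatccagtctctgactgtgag
These letters were found in 12 of the 19 interferon-list genes with a promoter in the table (63.2%), in 3.99% of all 27025 promoters and in 3.74% of the 10952 promoters of tested genes. Of the genes called higher without FAD_2152, 16 of 148 held it (10.8%), against 4 of 100 called lower (4.0%), and with all 4 libraries the shares were 9.52% of 42 higher and 11.1% of 27 lower genes. None of 20 homeostatic genes held it. Further motifs were GAGGAAGT, which the myeloid factor PU.1 binds, and the serum response element of Fos. GAGGAAGT was in 12 of the 148 called higher (8.11%), in 7 of the 100 called lower (7.0%) and in 3.84% of tested genes. The serum response element was in none of the 148, in none of 24 immediate-early genes and in 0.02% of tested genes. The window of Fos itself held no match to it, so no conclusion can be drawn from its absence. A match describes the sequence and does not show that a factor bound there.

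Of 14 class I antigen presentation genes, H2-D1 alone passed, with 422, 343, 357 and 421 CPM in wild type and 1235, 1315, 360 and 869 CPM in 5xFAD (log2 1.29, SE 0.28, edgeR adjusted p = 0.0305; log2 1.56, SE 0.21 without FAD_2152). Its call was lost without any library but FAD_2152, with an adjusted p of up to 0.141. Without FAD_2152, B2m, Nlrc5 and H2-K1 also rose (H2-D1 and H2-K1 are close copies whose reads may be shared). No class II gene of 10 passed with all 4, and H2-Ab1 and Cd74 passed without FAD_2152. Cd74 was also high in the shallow wild-type SPF4, at 98.8 CPM against 16.5 to 20.7 CPM in the other wild-type libraries.

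Etl4 and Cybb, named for the size of their change, were also closest to wild type in FAD_2152 among the 5xFAD libraries. Etl4 was at 0, 0.238, 0 and 0 CPM in wild type and at 11.5, 29.6, 0.850 and 16.1 CPM in 5xFAD (log2 7.42, SE 0.97, edgeR adjusted p = 0.00159; log2 7.82, SE 0.72 without FAD_2152). The wild-type level of Etl4 rested on 5 counts in SPF2. Its log2 difference ran from 6.84 to 10.98 over the 8 fits that left out a library, so its size is poorly determined. Cybb, the catalytic subunit of the phagocyte NADPH oxidase, had 1.21, 1.90, 0.330 and 4.43 CPM in wild type and 73.7, 56.2, 3.85 and 40.9 CPM in 5xFAD (log2 4.68, SE 0.85, adjusted p = 0.0117; log2 5.07, SE 0.72 without FAD_2152). The Cybb call was lost without SPF2 or SPF3, where the adjusted p reached 0.0628. The other genes named for size were Lox, Baiap2l2, Ch25h, Wfdc17, Bhlhe40, Ctse and Ifi27l2a, with log2 differences between 2.89 and 6.39. Of these, Baiap2l2 and Wfdc17 were called in all 8 fits that left out a library, Bhlhe40 and Ifi27l2a in 2, and Lox, Ch25h and Ctse in 1, the fit without FAD_2152. Among wild-type libraries Baiap2l2 had counts in SPF3 alone (14). Its log2 difference ran from 5.74 to 11.25 over these fits, so its size is poorly determined too. Lyz2, which encodes lysozyme, and Cd52 were picked after their values were seen: Lyz2 had 186, 284, 365 and 286 CPM in wild type and 1181, 1580, 317 and 1029 CPM in 5xFAD (log2 1.87, SE 0.31, adjusted p = 0.00618), and Cd52 had a log2 difference of 1.57 (SE 0.32, adjusted p = 0.0187). Without FAD_2152 the log2 differences were 2.17 (SE 0.21) and 1.86 (SE 0.25).

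The position of FAD_2152 was measured gene by gene as the share of the way from the wild-type mean to the mean of the other 3 5xFAD libraries on the log2 scale. Over the 200 genes called higher without it, its median position was 11.9% (quartiles -2.09% and 36.7%), 117 of the 200 lay within the wild-type range and 67 lay above it. When FAD_2140, FAD_2142 or FAD_2153 was treated in the same way, the medians over the genes called higher without each were 118%, 137% and 117%. These medians cover 24, 18 and 29 genes. Their reference mean included FAD_2152, unlike that for FAD_2152 itself, so they cannot be set against its 11.9%. On the 127 genes called lower without it, FAD_2152 had a median position of 28.5% (quartiles 13.6% and 49.0%), 47 lay within the wild-type range and 74 lay below it. Each set of genes was chosen by the other libraries and the sets differ, so these values are a description.

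Some genes lay closer to the other 5xFAD libraries in FAD_2152. Of the 127 lower genes, 30 were more than halfway to them, among them Fosb, Fos, Dusp1, Hpgd and Slc6a6. Of the 200 higher genes, 28 were more than halfway to the other 5xFAD libraries in FAD_2152, among them App, Lilrb4a, Cdk14, Kcnma1, Rftn1, Xylt1 and Bcl2. Kcnma1, a calcium-activated potassium channel, had 17.3, 15.6, 16.3 and 12.9 CPM in wild type and 30.3, 29.6, 30.5 and 48.2 CPM in 5xFAD (log2 1.16, SE 0.19, edgeR adjusted p = 0.00464; log2 1.21, SE 0.20 without FAD_2152). Cdk14, a cyclin-dependent kinase, had 37.0, 28.1, 32.5 and 38.8 CPM in wild type and 74.0, 62.2, 66.4 and 61.2 CPM in 5xFAD (log2 0.96, SE 0.17, adjusted p = 0.00895; log2 0.95, SE 0.19 without FAD_2152). In both genes FAD_2152 lay among the other 5xFAD libraries. The genes named in these 2 sentences were picked after their values were seen.

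**Figure D3:**
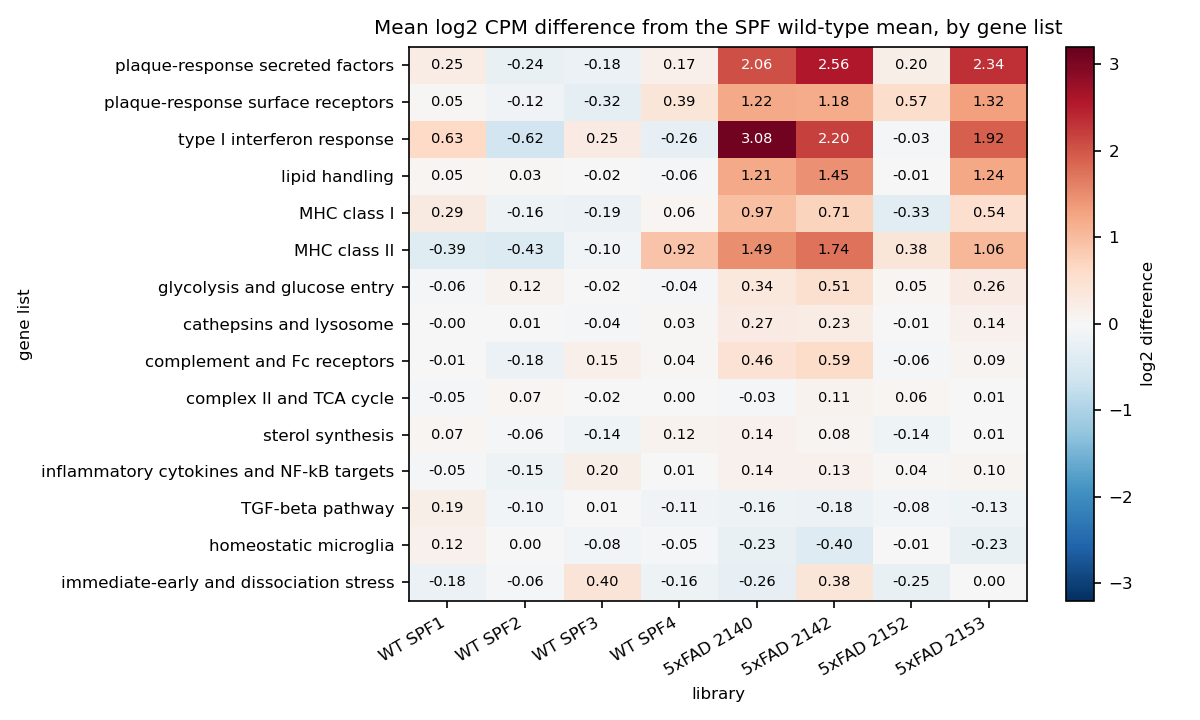
Mean log2 CPM difference from the mean of the 4 SPF wild-type libraries (colour and printed values) for 15 gene lists (rows) in the 8 SPF libraries (columns). Libraries FAD_2140, FAD_2142 and FAD_2153 reach 2.06, 2.56 and 2.34 on secreted plaque-response factors and 3.08, 2.20 and 1.92 on the interferon list, where FAD_2152 is at 0.20 and -0.03. On plaque-response surface receptors FAD_2152 is at 0.57, between wild type (-0.32 to 0.39) and the other 5xFAD libraries (1.18 to 1.32).

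Immediate-early genes, which are switched on within minutes by stimulation and also by tissue dissociation, contained a group of falls that FAD_2152 shared. Of 27 genes in the list, 5 fell (Fosb, Fos, Junb, Jund and Dusp1), none rose, and the list's median was -0.17, and -0.02 without FAD_2152. The list's mean log2 difference from the wild-type mean ran from -0.18 to 0.40 over the wild-type and from -0.26 to 0.38 over the 5xFAD libraries, so these ranges overlapped. Fosb, an AP-1 subunit, had 6.66, 22.99, 27.9 and 29.8 CPM in wild type and 1.94, 3.90, 3.63 and 4.26 CPM in 5xFAD (log2 -2.67, SE 0.49, edgeR adjusted p = 0.0116; log2 -2.71, SE 0.57 without FAD_2152). Fos had 81.0, 182, 261 and 171 CPM in wild type and 25.5, 44.9, 62.5 and 66.1 CPM in 5xFAD (log2 -1.80, SE 0.35, adjusted p = 0.0167; log2 -1.93, SE 0.39 without FAD_2152). The wild-type values spread over several fold, with SPF1 lowest, yet no 5xFAD library reached them for either gene.

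Dusp1, a phosphatase that switches off stress-activated kinases, had 90.3, 189, 264 and 188 CPM in wild type and 32.9, 53.7, 61.6 and 92.4 CPM in 5xFAD. Here FAD_2153 just exceeded SPF1, so the groups overlapped, and the log2 difference was -1.60 (SE 0.31, edgeR adjusted p = 0.0163) and without FAD_2152 -1.61 (SE 0.35). The AP-1 subunit Junb had 540.04, 929, 739 and 671 CPM in wild type and 215, 380.2, 434 and 367 CPM in 5xFAD, without overlap (log2 -1.04, SE 0.20, adjusted p = 0.0167; log2 -1.17, SE 0.22 without FAD_2152). Fosb was lost without FAD_2140 (adjusted p = 0.0548). Fos, Dusp1 and Junb were each lost in 4 of 8 such fits (without SPF2, SPF3, FAD_2140 or FAD_2142), with an adjusted p of up to 0.0846. Jund was lost without any of these or FAD_2153, with an adjusted p of up to 0.116. Without FAD_2152, Btg2 and Jun also fell, to 7 of 27.

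The Dusp1 promoter is shown because its cAMP response element, the site that binds the factor CREB, lies within the window. The window is chr17:26508423-26508722 on the minus strand (RefSeq, GRCm38.p6), and capitals mark TGACGTCA, which begins at base -143.
Dusp1: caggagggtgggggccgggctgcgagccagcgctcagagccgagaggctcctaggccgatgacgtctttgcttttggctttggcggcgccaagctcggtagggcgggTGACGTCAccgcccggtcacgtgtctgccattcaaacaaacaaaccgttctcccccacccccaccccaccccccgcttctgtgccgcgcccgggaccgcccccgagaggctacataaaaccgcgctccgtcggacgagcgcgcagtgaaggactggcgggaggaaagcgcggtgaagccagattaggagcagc
The element was found in 2 of 24 immediate-early genes with a promoter in the table (8.33%, Btg2 and Dusp1), in 2.03% of all promoters and in 3.48% of those of tested genes. Of the genes called lower, 1 of 27 held it (3.7%), and 3 of 100 (3.0%) without FAD_2152. For the lysosomal E-box TCACGTGA, which TFE factors bind, the shares were 5 of 27 cathepsin and lysosome genes (18.5%), Ctsd among them, and 2.15% of tested genes. Of the genes called higher, 1 of 42 held this E-box (2.38%), and 3 of 148 (2.03%) without FAD_2152.

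**Figure D4:**
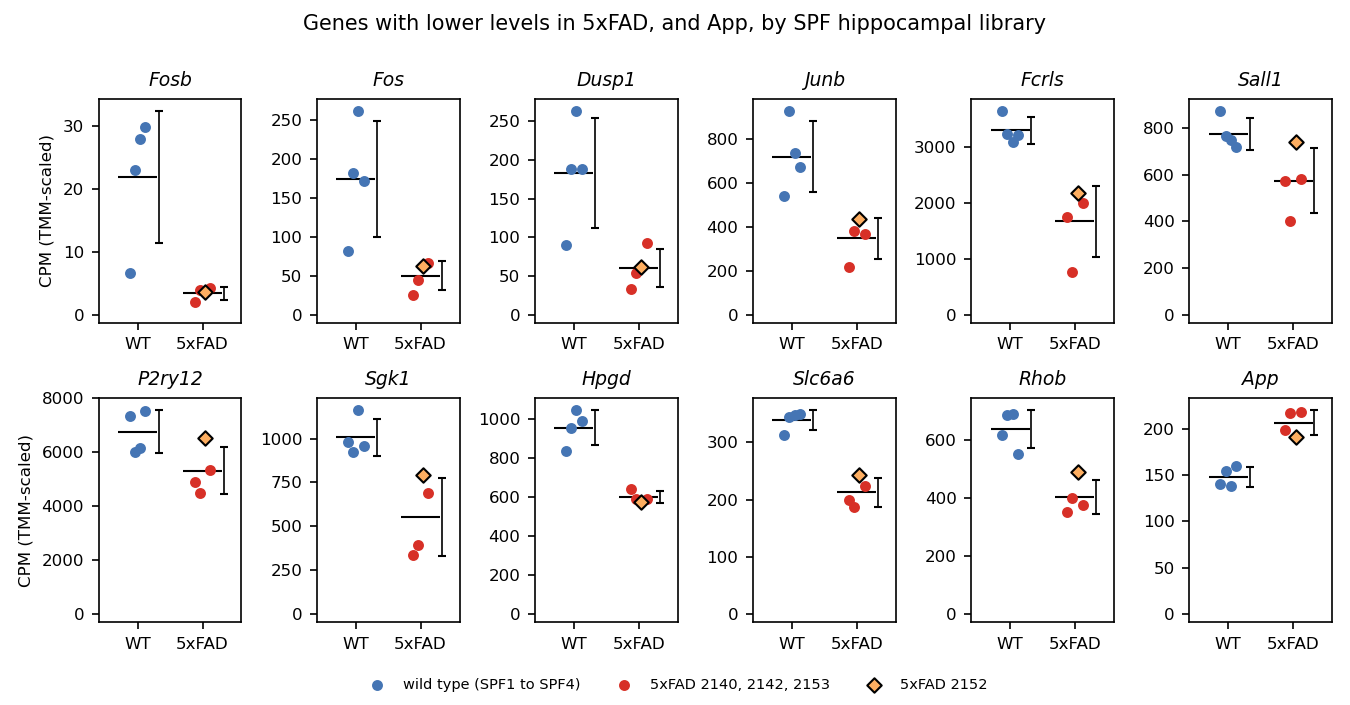
CPM (y axis, linear scale, one scale per gene) of 11 genes with lower levels in 5xFAD, and of App, in each SPF hippocampal library, marked as in the plot of higher genes (lines are means and bars SD, n = 4). For Fosb, Fos, Dusp1, Hpgd and Slc6a6 the FAD_2152 diamond lies with the other 5xFAD libraries, and for Sall1 and P2ry12 it lies with wild type.

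Homeostatic genes of microglia fell in 2 of 30 (Fcrls and Ltc4s), none rose, and the median was -0.22. Fcrls had 3647, 3233, 3093 and 3211 CPM in wild type and 1754, 759, 2180.0 and 2000.5 CPM in 5xFAD, with no overlap and with FAD_2142 lowest (log2 -0.98, SE 0.19, edgeR adjusted p = 0.0174; log2 -1.13, SE 0.20 without FAD_2152). The Fcrls call was lost without SPF2, SPF3 or FAD_2140, with an adjusted p of up to 0.0523. The Ltc4s call (log2 -0.57, SE 0.13, edgeR adjusted p = 0.0455) was lost without any library but SPF4 or FAD_2152, with an adjusted p of up to 0.175. Without FAD_2152, 9 of 30 fell. They included P2ry12, the ADP receptor that steers microglial processes (log2 -0.46, SE 0.10, adjusted p = 0.0138), and the marker Tmem119 (log2 -0.41, SE 0.11, adjusted p = 0.047). They also included Cx3cr1, the fractalkine receptor (log2 -0.31, SE 0.08, adjusted p = 0.0359), and Sall1, a transcription factor of microglial identity (log2 -0.58, SE 0.12, adjusted p = 0.00744). With all 4 libraries these 4 genes had adjusted p-values of 0.17, 0.217, 0.557 and 0.135. In FAD_2152, P2ry12 was at 6529 CPM, within the wild-type range of 5995 to 7530 CPM, while the other 5xFAD libraries had 4498 to 5332 CPM.

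Hpgd and Slc6a6 were below wild type in all 4 5xFAD libraries. Hpgd, which inactivates prostaglandins, had 834, 952, 1045 and 987 CPM in wild type and 642, 589.6, 572 and 591 CPM in 5xFAD, with FAD_2152 the lowest (log2 -0.67, SE 0.11, edgeR adjusted p = 0.00569; log2 -0.65, SE 0.12 without FAD_2152). Slc6a6, the taurine transporter, had 312, 345, 347 and 350.3 CPM in wild type and 199, 187, 243 and 223 CPM in 5xFAD (log2 -0.67, SE 0.10, adjusted p = 0.00197; log2 -0.74, SE 0.10 without FAD_2152). The groups did not overlap for either gene. Rhob, a small GTPase, and Zfp467, a zinc finger protein, fell by 0.66 and 0.86 on the log2 scale (SE 0.10 and 0.13, adjusted p = 0.00376 and 0.00318). Sgk1, a kinase induced by glucocorticoids, had 982, 925, 1162 and 957 CPM in wild type and 337, 392, 793 and 689 CPM in 5xFAD (log2 -0.86, SE 0.18, adjusted p = 0.0298; log2 -1.09, SE 0.17 without FAD_2152). It was the 1 of 12 steroid-type response genes that passed, and its call was lost without any library but FAD_2152 or FAD_2153, with an adjusted p of up to 0.137.

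Few metabolic genes passed, which at 0.568% of all tested genes called does not set these lists apart. None of 22 glycolysis and glucose entry genes passed with all 4 libraries (median log2 0.34), and 5 rose without FAD_2152: Eno1, Tpi1, Gapdh, Ldha and Pkm, by log2 0.51 to 0.75. The glycolysis list's mean log2 difference from the wild-type mean was 0.34, 0.51, 0.05 and 0.26 in the 5xFAD libraries. It ran from -0.06 to 0.12 over the wild-type libraries. None of 25 complex II and TCA cycle genes passed with or without FAD_2152 (medians 0.01 and -0.03). Sdha, the catalytic subunit of complex II, had a log2 difference of 0.15 (SE 0.11, edgeR adjusted p = 0.737). Of 11 tested acetate and acetyl-CoA genes, Hcar2 rose, a receptor for the ketone body beta-hydroxybutyrate, from 11.3, 8.04, 8.85 and 10.4 CPM to 40.9, 89.7, 10.3 and 29.1 CPM (log2 2.13, SE 0.41, adjusted p = 0.0167; log2 2.46, SE 0.34 without FAD_2152). Its call was lost without SPF2, SPF3 or FAD_2142, with an adjusted p of up to 0.0928. Of 32 genes of the other respiratory complexes none passed, and Ndufa1 alone rose without FAD_2152.

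In the list of inflammatory cytokines and NF-kB targets, none of 24 tested genes passed with or without FAD_2152, with medians of -0.06 and -0.09. This holds for the list as drawn. The chemokines Ccl3, Ccl4 and Cxcl16, counted among the secreted plaque-response factors, were called higher without FAD_2152 and not with it. None of 15 complement and Fc receptor genes, 14 tested TGF-beta pathway genes or 30 proliferation genes passed in either fit. At the share called over all tested genes, lists of this size without a call do not stand out. The proliferation list had a median of 0.56 with a wide spread: Mki67 had 3.15, 5.66, 7.31 and 0.170 CPM in wild type and 6.65, 7.09, 9.86 and 23.8 CPM in 5xFAD (edgeR adjusted p = 0.615). Of 15 tested transcription factors of microglial identity, Bhlhe40 rose and Maf fell (log2 -0.45, SE 0.10, adjusted p = 0.0384, and up to 0.163 without any library but SPF1 or FAD_2152). Of 20 risk genes with microglial expression, Apoe alone passed, and without FAD_2152 Cd33 fell as well.

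Histone genes were added after their values were seen, and their close copies can share reads. Of 38 tested, none passed with all 4 libraries (median log2 -1.11), and 7 fell without FAD_2152 (median -1.60). H4c4 had 147, 176, 135 and 204 CPM in wild type and 9.58, 42.7, 124 and 79.4 CPM in 5xFAD, with FAD_2140 lowest and FAD_2152 closest to wild type (log2 -1.91, SE 0.42, edgeR adjusted p = 0.0161 without FAD_2152). The medians in germ-free mice and under acetate were 0.25 and 0.13, with none called.

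The SPF response was set beside the germ-free and acetate comparisons, which share no library with it but share the estimate of spread. In those, 95 (0.557%) and 313 (1.83%) genes were higher in 5xFAD and 34 (0.199%) and 115 (0.674%) lower, 129 (0.756%) and 428 (2.51%) in all. Of the 62 genes higher in SPF, 61 had the same sign in germ-free mice and 27 were called (43.5%), and 61 had it under acetate with 44 called (71.0%). Of the 35 lower genes, 31 had the same sign in germ-free mice with 5 called (14.3%), and 33 under acetate with 12 called (34.3%). None was called in the opposite direction. Over the 200 genes called higher without FAD_2152, the median log2 difference from the wild-type mean of the same housing was 1.34, 1.48, 0.13 and 1.33 in FAD_2140, FAD_2142, FAD_2152 and FAD_2153, 0.91 to 1.1 in the 3 germ-free 5xFAD libraries and 1.22 to 1.43 in the 4 acetate ones. Library FAD_2152 was thus below each 5xFAD library of the other housings on these genes. Fos, which fell in SPF mice, had log2 differences of -0.61 (SE 0.39) in germ-free mice and -0.67 (SE 0.34) under acetate, and neither passed.

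**Figure D5:**
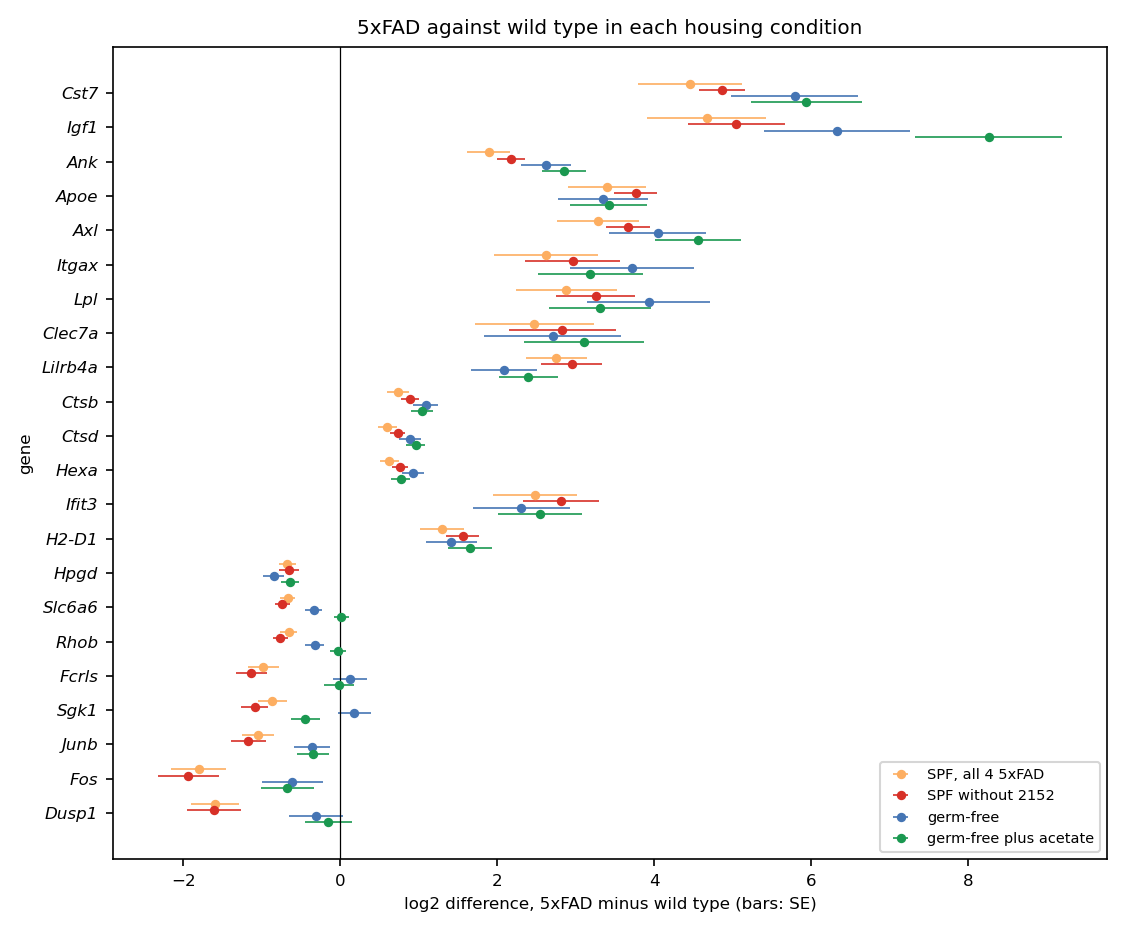
Log2 difference between 5xFAD and wild type (x axis, points, with bars of 1 SE) for 22 genes (rows) in SPF mice with all 4 libraries, in SPF mice without FAD_2152, in germ-free mice and in germ-free mice given acetate. Genes that were higher in SPF lie to the right of 0 in all housings. Slc6a6, Rhob, Fcrls, Sgk1 and Dusp1, given as examples and not as a full list, lie further left in SPF than in the others. Such a difference did not pass the interaction test for any gene shown.

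The difference between housings was tested directly. No gene's 5xFAD response differed between SPF and germ-free mice, or between SPF and acetate-treated mice, at an edgeR adjusted p under 0.05, with 942 and 1124 of 17063 at an unadjusted p under 0.05. DESeq2 called 15 and 25, and limma-voom none. The log2 difference between SPF and germ-free responses was -1.10 (SE 0.29, adjusted p = 0.563) for Fcrls, -1.19 (SE 0.52, adjusted p = 0.877) for Fos and 0.04 (SE 0.69, adjusted p = 1) for Apoe. Without FAD_2152, 1 gene differed between SPF and germ-free mice (0.00588%), and none between SPF and acetate. It was Gpd1, the cytosolic glycerol-3-phosphate dehydrogenase, with 13.3, 22.2, 23.96 and 23.5 CPM in SPF wild type and 8.75, 9.22, 15.2 and 7.75 CPM in SPF 5xFAD. In germ-free mice Gpd1 had 20.3 to 37.9 CPM in the 3 wild-type and 60.5 to 64.7 CPM in the 3 5xFAD libraries. Its log2 difference was -1.28 (SE 0.25, adjusted p = 0.0066) in SPF mice without FAD_2152 and 1.01 (SE 0.28, adjusted p = 0.0889) in germ-free mice, so the responses had opposite signs. Its difference between responses was -2.29 on the log2 scale (SE 0.36, adjusted p = 0.0313) without FAD_2152, and -2.02 (SE 0.37, adjusted p = 0.252) with it.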

How the data were processed

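The authors deposited raw counts of reads per gene, in a table of 53546 rows for the hippocampus and cortex libraries. Per the submitters' processing notes STAR 2.5.2b and featureCounts 1.5.1 were used, with the build given as GRCh38, a human build, although gene symbols are of mouse. No coordinates were therefore taken from the files. Strandedness of counting is not given in the sources used here.

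From the deposited counts, 22 hippocampus libraries in 6 groups were fitted together with edgeR 4.0.16 in R 4.3.3 (TMM scaling, a count minimum of 10 in filterByExpr, robust quasi-likelihood test, Benjamini-Hochberg adjustment over all genes tested, threshold 0.05). The test was also run on simulated data with 200 changed genes, and the outcome of that run is not reported here. DESeq2 1.42.0 and limma 3.58.1 were alternatives, as were other scalings, filters and sets of libraries. SE is the log2 difference divided by the root of the F statistic, and log2 CPM used a prior count of 2. Floors cover counting error only, whereas the SE also includes the spread between libraries estimated in the fit. Replicate pairs within a group differed beyond sampling noise (chi-square per degree of freedom 15.1 to 48.6 over 12 pairs), so none was merged. The labels number the libraries without stating that each came from a separate animal, and p-values measure the spread between these libraries.

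Named genes were the 15 with the largest fold per direction among called genes whose mean reached 5 CPM in one genotype, with predicted genes left out, up to 4 genes with the smallest p per list, members of lists that the text counts, and a fixed set of microglial and amyloid genes. The members and the 35 gene lists were chosen with earlier results of these data known. Some genes are not reported here.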

Additional observations from a re-analysis of the deposited data

Results flagged for a closer look

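A gap test between the outermost library of a group of 4 and its nearest neighbour, relative to the group's range on the log2 scale (summed markers on a log2 scale too), was above Dixon's critical value for 4 samples in 39 of 314 sets of libraries (12.4%), where chance flags about 1 in 20 sets of continuous values. In 11 of the 39 the other 3 libraries were at 0, which fixes the gap at 1 even for a few counts, so the 2 rates cannot be compared. The gap is given as a share of the range.

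In 15 of these sets the outermost library was FAD_2152. That library was singled out by its levels of plaque-response genes, so its gaps on such genes repeat that choice and are a description. It was lowest in 10, each at higher levels in the other 3 5xFAD libraries, with gaps of 0.897 for Mamdc2, 0.843 for Lox, 0.841 for Baiap2l2, 0.862 for Ch25h, 0.857 for Igf1, 0.915 for Cst7, 0.974 for Axl, 0.874 for Itgax, 0.86 for Clec7a, 0.856 for Csf1. It was highest in 5, with gaps of 0.912 for Ltc4s, 1 for Cd79a, 1 for Snap25, 1 for Mobp, 1 for Mog. Ltc4s is a homeostatic gene that fell in the other 5xFAD libraries, and the other 4 were at most 1.19 CPM in FAD_2152 and at 0 in the other 3 5xFAD libraries.

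Wild-type SPF1 stood apart, with gaps of 0.894 for Clec4a2 (low), 0.86 for Slc6a6 (low), 0.853 for Fbrsl1 (high), 0.941 for Nfkbia (low), 0.929 for Ptpn6 (high), 0.847 for Tgfbr1 (high), 1 for Aldoc (high). Wild-type SPF2 stood apart, with gaps of 1 for Etl4 (high), 0.859 for Nsdhl (low), 1 for Mog (high). Wild-type SPF3 stood apart, with gaps of 1 for Baiap2l2 (high), 1 for Zbtb16 (high), 1 for Cd163 (high), 0.859 for Hbb-bs (high), 0.862 for erythroid markers (high). Wild-type SPF4 stood apart, with gaps of 0.874 for Cd74 (high), 0.858 for H2-DMb2 (low), 0.899 for Tubb3 (high), 0.869 for Flt1 (high), 0.879 for Itm2a (high). Library FAD_2140 stood apart, with gaps of 0.833 for Hmgb2 (low). Library FAD_2142 stood apart, with gaps of 0.861 for Zfp467 (low). Library FAD_2153 stood apart, with gaps of 1 for Gfap (high), 0.98 for neutrophil markers (high). The erythroid sum of SPF3 and the neutrophil sum of FAD_2153 are those given above. The cause of these gaps was not tested.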

How the results depend on the processing

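Of 62 genes higher and 35 lower with all 8 SPF libraries, the counts were 206 and 111 with DESeq2. With limma-voom and quality weights 29 were higher. Without a filter on low counts 23 were lower. The 8 SPF libraries alone gave 6 and 4, and leaving out both shallow libraries (SPF4 and FAD_2142) gave 15 and 6. Leaving out FAD_2152 and FAD_2153 together gave 194 and 141, and leaving out 1 library at a time gave 18 to 200 higher and 7 to 127 lower. Alternatives chosen after seeing the data gave 145 and 89 without FAD_2152 and SPF3, 77 and 34 without FAD_2152 and both shallow libraries (against 200 and 127 without FAD_2152 alone), and 180 and 81 for the 7 SPF libraries without FAD_2152. The cause of these differences was not tested. Fewer libraries enter the fits on SPF alone, and whether this changed their counts was not tested either. Genes called in SPF whose response differed from germ-free mice numbered 0, and 4 with DESeq2, 1 without a filter, 2 without FAD_2152 and FAD_2153, and 0 to 1 when 1 library was left out; against acetate they numbered 0, and 4 with DESeq2, 23 without FAD_2152 and FAD_2153, and 0 to 0 when 1 library was left out. Over the named genes and all alternatives, 2470 results kept direction and side of the threshold, 112 passed newly, 290 no longer passed and none reversed. No paired analysis was possible because the wild-type libraries are numbered 1 to 4 and the 5xFAD libraries by other numbers, with none in common. Depth limits what SPF4 and FAD_2142 can show for genes below about 0.512 to 0.522 CPM.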
